A study of Arabidopsis thaliana with 24 samples.

Results

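The mkk1 and mkk2 single mutants of Arabidopsis thaliana were compared, as a pool, with the wild-type accession Col-0 at 24 h after BTH. The members were chosen by sample title alone: 3 arrays of mkk1 after BTH, 3 of mkk2 after BTH and 3 of Col-0 after BTH, 9 of the 24 arrays of the series. The pooled value was the mean of the 2 genotype means, minus the mean of Col-0, on the log2 scale. RNA came from whole soil-grown plants under short days, and 1 ATH1 array, a short-oligonucleotide array with several probes per transcript, was hybridised per sample. All 22746 probe sets other than the array's own controls were tested.

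The mkk1 line carried the insertion SALK_027645 and the mkk2 line Garlic_511-HO1, so each genotype stood for 1 insertion line. The other arrays used below were the same 3 genotypes untreated, and the mkk1/mkk2 line that lacks both kinases, untreated and after BTH, 3 arrays each. The untreated Col-0 arrays are titled Time 0, and those of the mutants no-treatment with no hour given. Harvest time may therefore differ between Col-0 and the mutants wherever untreated arrays are compared. The treatment notes give a 100 µM BTH spray for mkk2 and mkk1/mkk2 but a control treatment for the samples titled Col-0 and mkk1 after BTH. The BTH label of those 6 arrays therefore rests on their titles and source names. The sample descriptions call every array untreated Col-0, against the titles, so both genotype and treatment were taken from the titles throughout. No mock-sprayed group was in the series, and the labels do not say whether replicates were separate plants, so p-values measure only the spread between these samples. In whole plants a change in the share of a tissue and a change in RNA per cell cannot be told apart.

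MKK1 and MKK2 are related mitogen-activated protein kinase kinases. They act below the kinase MEKK1 and above the MAP kinase MPK4 in a cascade that restrains plant immunity, and they overlap in function: each single mutant grows much like the wild type, whereas loss of both gives dwarf plants with defence switched on. BTH (benzothiadiazole) is a synthetic activator that acts like salicylic acid, the hormone of systemic acquired resistance, through the co-activator NPR1. The comparison asks how plants that lack 1 of the kinases differ from the wild type once that pathway has been activated.

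After BTH, the pooled single mutants differed from Col-0 at 963 of 22746 probe sets by limma at an adjusted p under 0.05, which is 4.23% and is what "called" means below. Of these, 502 (2.21%) were higher and 461 (2.03%) lower in the mutants. The changes were mostly modest, with a median of 0.76 among those higher (1.7-fold) and -0.74 among those lower (1.67-fold), and 220 reached 2-fold. The median over all probe sets was 0.03. At 837 of the 963 (3.68% of all tested) the 6 mutant arrays and the 3 Col-0 arrays did not overlap, against 3264 (14.3%) of all probe sets.

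Array set and genotype were confounded throughout. On the array's spiked-in controls, the difference between bioC and bioD ran from -3.61 to -3.33 on the 12 single-mutant arrays and from -2.23 to -1.77 on the other 12, with no overlap. Between the 3′ and 5′ probe sets for GAPDH the difference (3′ minus 5′) was 0.6 to 0.73 in Col-0 after BTH, -0.04 to 0.23 in mkk1 and -0.07 to 0.19 in mkk2. Whether a difference from Col-0 is one of genotype or of array set cannot be told apart in these data. Col-0 after BTH was also the least uniform of the 3 groups, its arrays correlating on average at 0.975 (replicate A), 0.988 (B) and 0.978 (C) with their own group, against 0.988 to 0.992 in the mutants. Without replicate A, 60 probe sets were called (24 higher, 36 lower), without B 251 and without C 1913. With replicate A and 2 untreated arrays that also stand apart left out together, 893 were called, 336 higher and 557 lower, and 469 of them were among the 963.

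Of 37 genes listed for salicylic acid defence 7 were measured. None of the 7 was called between the mutants and Col-0 after BTH, beside 4.23% of all probe sets, a share at which few or no calls would come from 7 genes. By limma 4 of the 7 had an unadjusted p under 0.05, as had 4671 of all 22746 probe sets. CHI, a chitinase gene that responds to salicylic acid, read 8.84, 8.77 and 9.5 in Col-0, 8.64, 9.36 and 8.85 in mkk1, and 9.3, 9.56 and 9.51 in mkk2. The arrays overlapped, and the pooled difference was 0.17 ± 0.24 (SE, 95% interval -0.34 to 0.67, adjusted p = 0.765 by limma). The untreated means were far lower in every genotype, at 4.75 ± 0.43 in Col-0, 5.81 ± 0.52 in mkk1 and 4.58 ± 0.25 in mkk2 (SD, n = 3 each).

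GRX480, a glutaredoxin gene that links the salicylic acid and jasmonate pathways, read 9.6, 9.65 and 8.92 in Col-0 against 8.8, 9.19 and 8.31 in mkk1 and 9.16, 8.78 and 8.49 in mkk2. The groups overlapped through the third Col-0 array, and the difference of -0.6 ± 0.2 was not called (adjusted p = 0.091 by limma). Without Col-0 replicate C it was called, at -0.84 (0.0227), and the other settings gave -0.71 to -0.25 with no call. RING1, a membrane-bound ubiquitin ligase gene, stood 0.65 ± 0.27 above Col-0 (adjusted p = 0.167), UGT76B1, which glucosylates isoleucic and salicylic acid, 0.69 ± 0.3 (0.202), and SBT3.3, a subtilase gene of immune priming, 0.4 ± 0.18 (0.205). OSM34, an osmotin-like gene, was at 0.39 (0.254), and SAG101, a partner of the immune regulator EDS1, at 0.19 (0.73). In all 6 of the 7 were above 0 and 1 below, and the list median was 0.39 beside 0.03 for all probe sets. Without Col-0 replicate A the median was 0.35 and 2 of the 7 were below 0. OSM34 and SBT3.3 had low levels in Col-0, with means of 3.88 and 3.67 untreated and 4.06 and 3.83 after BTH. PR1, PR2 and PR5, like MKK1, MKK2 and MPK4, had no single-gene probe set in the annotation and were not analysed here.

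The jasmonate and ethylene branch had 7 measured members of 31 listed. None of the 7 was called, beside 4.23% of all probe sets, a share at which few or no calls would come from 7 genes. By limma 4 of the 7 had an unadjusted p under 0.05, as had 4671 of all 22746 probe sets. PDF1.2, a defensin gene used as a marker of that branch, read 5.39, 5.74 and 5.56 in Col-0, 4.85, 5.69 and 4.23 in mkk1, and 4.2, 4.52 and 4.05 in mkk2. All 3 mkk2 arrays lay below Col-0 while 1 mkk1 array reached it, and the pooled difference was -0.97 ± 0.34 (adjusted p = 0.104 by limma). ORA47, a jasmonate-responsive transcription factor gene, was at -0.75 (0.178) after BTH, while untreated it was called lower, at -2.15. The list median was -0.33, and -0.2 without Col-0 replicate A.

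Among 6 measured genes of MAP kinase signalling and pattern-triggered immunity, BIK1 was called (1 of 6, beside 2.21% of all probe sets called higher). BIK1 encodes a receptor-like cytoplasmic kinase that relays signals from immune receptors. It read 5.95, 6.67 and 6.71 in Col-0, 7.11, 7.07 and 7.26 in mkk1, and 7.86, 7.59 and 7.73 in mkk2, so that all 6 mutant arrays lay above all 3 of Col-0. The pooled rise was 0.99 ± 0.24 (1.99-fold, adjusted p = 0.0282 by limma), and untreated it was 0.86 (0.0179). The level in mkk1/mkk2 was higher again, at 8.83 untreated and 9.1 after BTH. Without Col-0 replicate A the difference in BIK1 was 0.75 with an adjusted p of 0.256. The ubiquitin ligase genes PUB22, PUB23, PUB24 and PUB25 and the receptor gene EFR were not called, with values from -0.1 to 0.59.

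The largest rise among named genes was in petG, a plastid gene for a small subunit of the cytochrome b6f complex of the photosynthetic electron chain. It read 6.63, 6.87 and 6.13 in Col-0 against 10.23, 10.1 and 9.09 in mkk1 and 9.86, 9.54 and 8.68 in mkk2. No mutant array came near the Col-0 range, and the pooled rise was 3.04 ± 0.43 (8.22-fold, adjusted p = 0.0026 by limma). It stayed called under all 18 alternative settings, with values from 2.83 to 3.47. Untreated, the mutants were also above Col-0 on average, by 1.4 ± 0.43 (0.0285). There the groups overlapped through Col-0 replicate A: Col-0 read 9.72, 7.67 and 7.07, against 8.94 to 10.3 in the mutants. The mkk1/mkk2 plants, which share the array set of Col-0, had means of 5.7 untreated and 5.43 after BTH.

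The plastid genes psaA, psbD and psbK were called higher too, which made 4 of the 43 measured plastid genes of photosynthesis (9.3%, beside 2.21% called higher of all probe sets). Untreated, 1 of the 43 was called higher and 4 lower (beside 9.47% and 8.52% of all probe sets), with a median of -0.07. psaA, for a core protein of photosystem I, read 7.78, 9.12 and 8.3 in Col-0 against 9.44 to 10.98 in the mutants, a rise of 1.71 ± 0.41 (adjusted p = 0.0269 by limma). psbD, for the D2 protein of photosystem II, rose by 1.57 (0.0331), and psbK, for a small subunit of photosystem II, by 0.94 (0.018). Both had higher values on every mutant array than on any Col-0 array. Without Col-0 replicate A these 3 genes were at 1.4, 1.27 and 0.87 and were not called (adjusted p = 0.226, 0.258 and 0.143).

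The 43 genes did not move as 1 block. Their changes ran from -1.03 to 3.04 with 26 above 0, and the median was 0.18, or 0.04 without Col-0 replicate A. The mean level of the list was 9.5, 10.06 and 9.83 on the Col-0 arrays, 10.45, 10.15 and 9.93 in mkk1, and 10.3, 9.88 and 10 in mkk2, so the groups overlapped. In the 21 measured plastid genes for transcription and translation (ribosomal proteins, polymerase subunits), 16 were below 0 and none was called (beside 4.23% of all probe sets). Their median was -0.26 (-0.45 without Col-0 replicate A). Of 10 nuclear photosynthesis genes none was called either, with a median of 0.23, or 0.06 without that array. The GAPDH 3′ minus 5′ values given above also separate the mutants from Col-0 after BTH, and their part in the plastid result was not tested.

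Outside the plastid, AT5G64120 rose and was called under all 18 settings. It encodes peroxidase 71, one of the secreted class III peroxidases that act in the cell wall. It read 5.33, 5.6 and 5.83 in Col-0, 6.45, 7.13 and 6.93 in mkk1, and 7.68, 7.31 and 7.33 in mkk2. The groups did not overlap, the rise was 1.55 ± 0.23 (2.93-fold, adjusted p = 0.00283 by limma), and it was called in mkk1 alone (1.25, 0.0414) and in mkk2 alone (1.85, 0.00202). In mkk1/mkk2 the means were 7.4 untreated and 7.45 after BTH, close to that of mkk2 after BTH, 7.44.

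**Figure D1:**
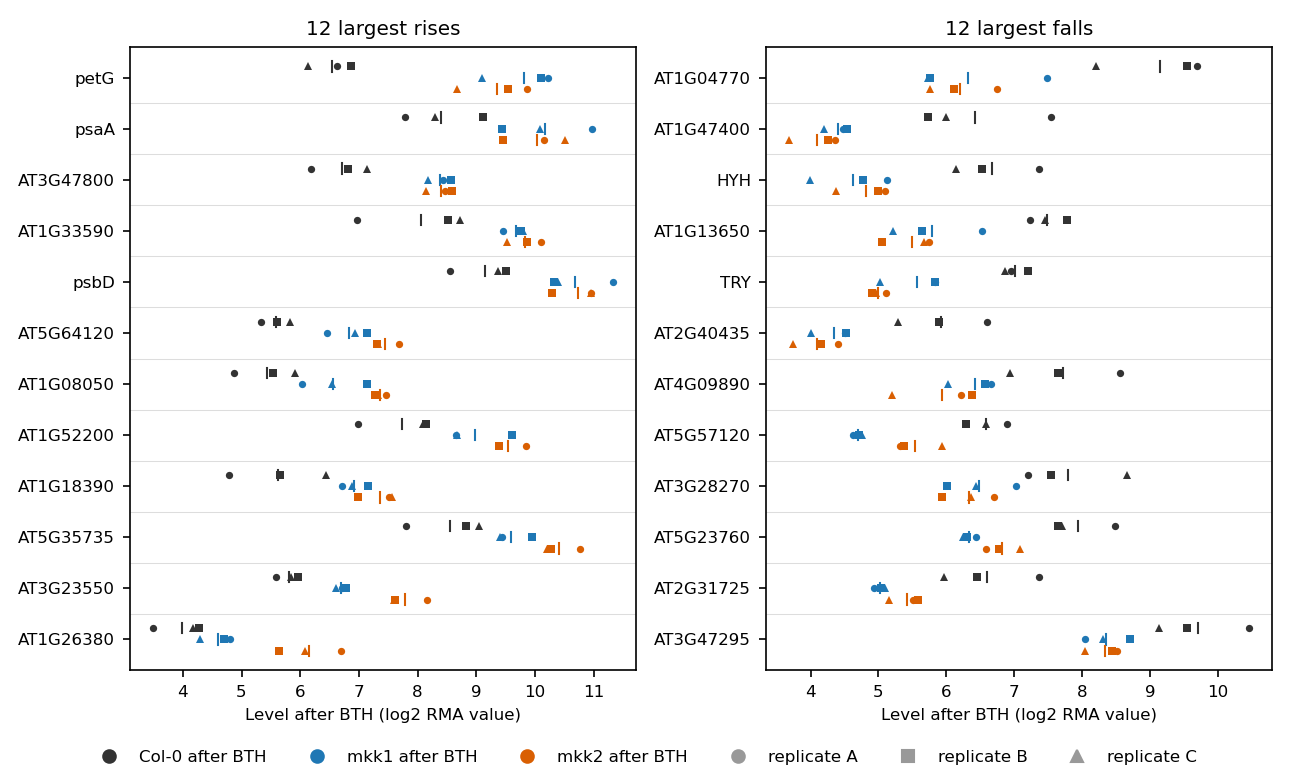
Levels after BTH (log2 RMA values, x axis) of 12 named genes that rose most and 12 that fell most, 1 point per array (3 per genotype, shape gives the replicate letter) with a bar at each group mean. In each gene the 6 single-mutant arrays lie on 1 side of the 3 Col-0 arrays, as the rule for naming these genes required, and Col-0 replicate A (black circle) is the Col-0 array farthest from the mutants in 20 of the 24 genes.

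The 12 largest named rises ran from 1.4 to 3.04. AT1G08050 read 4.87, 5.53 and 5.91 in Col-0, 6.03, 7.13 and 6.54 in mkk1, and 7.46, 7.28 and 7.32 in mkk2, a rise of 1.52 ± 0.26 (adjusted p = 0.00464 by limma). AT1G26380 was uneven between the mutants: 3.49, 4.27 and 4.18 in Col-0, 4.81, 4.71 and 4.3 in mkk1, but 6.7, 5.64 and 6.09 in mkk2. Its pooled rise of 1.4 (0.0188) thus came mainly from mkk2, although the difference between the mutants, -1.54, was not called (0.413). The gene table pairs these 2 loci with no name.

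Among the other large rises, AT3G47800 was even across the mutants. It read 6.18, 6.81 and 7.14 in Col-0, 8.43, 8.57 and 8.17 in mkk1, and 8.46, 8.58 and 8.15 in mkk2, a rise of 1.68 ± 0.27 (3.21-fold, adjusted p = 0.00378 by limma), and its untreated rise was 2.05. AT3G23550 was graded, at 5.59, 5.97 and 5.85 in Col-0, 6.72, 6.78 and 6.61 in mkk1, and 8.16, 7.62 and 7.6 in mkk2, the mkk2 level being close to that of untreated mkk1/mkk2, 7.69. AT1G52200 read 6.98, 8.15 and 8.09 in Col-0, 8.66, 9.61 and 8.67 in mkk1, and 9.85, 9.38 and 9.38 in mkk2, below the 10.18 of untreated mkk1/mkk2. Col-0 replicate A was the Col-0 array farthest from the mutants in 20 of the 24 genes with the largest named changes.

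The strongest fall among named genes was in AT1G04770, whose function the gene table does not give. It read 9.69, 9.54 and 8.2 in Col-0, 7.48, 5.76 and 5.73 in mkk1, and 6.75, 6.11 and 5.76 in mkk2. The groups did not overlap, and the level was 2.88 ± 0.49 lower in the mutants by limma (pooled log2 change -2.88, 7.35-fold, adjusted p = 0.00464). It was called lower in mkk1 alone (-2.82, 0.0402) and in mkk2 alone (-2.94, 0.0102). Without Col-0 replicate A it was at -2.61 with an adjusted p of 0.0585. AT1G47400 (-2.17) showed the weight of that array: Col-0 read 7.54, 5.73 and 5.99 against 3.68 to 4.53 in the mutants, and without replicate A it was at -1.61 and not called (0.199). AT2G40435 read 6.6, 5.89 and 5.29 in Col-0, 4.51, 4.52 and 4.01 in mkk1, and 4.4, 4.16 and 3.74 in mkk2 (-1.7 ± 0.29, adjusted p = 0.00464 by limma).

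A pair of transcription factor genes of light signalling and epidermal patterning were among the falls. HYH, the bZIP homologue of the light-response factor HY5, read 7.36, 6.53 and 6.14 in Col-0, 5.12, 4.77 and 3.99 in mkk1, and 5.1, 5 and 4.37 in mkk2, a change of -1.95 ± 0.5 (adjusted p = 0.0338 by limma). TRY (TRIPTYCHON), a small MYB-type repressor of trichome formation, read 6.96, 7.21 and 6.86 in Col-0, 5.83, 5.84 and 5.02 in mkk1, and 5.11, 4.9 and 4.96 in mkk2. That was a change of -1.73 ± 0.29 (3.32-fold lower, 0.00464), and it was called under the 17 settings that kept it, its mean being below the level filter of the other. Both were further below Col-0 untreated, HYH at -2.99 and TRY at -2.84.

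AT1G13650 and AT3G47295, which the gene table does not name, were the other falls called under all 18 settings. AT1G13650 read 7.24, 7.78 and 7.45 in Col-0 against 5.22 to 6.52 in mkk1 and 5.05 to 5.74 in mkk2 (-1.85 ± 0.3, adjusted p = 0.00354 by limma). AT3G47295 read 10.46, 9.54 and 9.13 in Col-0 against 8.04 to 8.7 in mkk1 and 8.04 to 8.52 in mkk2 (-1.37 ± 0.23, 0.00421). Of the 42 genes named for being called, 5 (these 2, petG, AT5G64120 and TRY) were called under every setting that kept them, and the other 37 were not called without Col-0 replicate A. All 37 kept their sign without it, and their changes were 0.624 to 1.22 times as large; 5 were larger, such as SWEET13 at -1.8 and AT3G28270 at -1.69.

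The other called list members came singly or in pairs from different lists. SWEET13, a sucrose transporter gene, read 6.92, 7.47 and 7.85 in Col-0, 7.01, 5.95 and 5.65 in mkk1, and 5.76, 5.08 and 5.7 in mkk2. One mkk1 array overlapped Col-0, and the change was -1.56 ± 0.37 (adjusted p = 0.0234 by limma). MSRB6, a methionine sulphoxide reductase gene, read 11.54, 11.09 and 10.72 in Col-0 against 9.66 to 10.26 on the 6 mutant arrays, a change of -1.19 ± 0.21 (0.00518). GSTU26, a glutathione transferase gene, was lower by limma at -1.02 (0.0148), CYP71B26 and CYP71B36, cytochrome P450 genes, at -1.17 (0.0338) and -0.78 (0.0316), and HTB11, a histone H2B gene, at -0.77 (0.0331). The chromatin list that holds HTB11 had 5 measured genes, all below 0 after BTH (median -0.53), whereas untreated their median was 0.44 and none was called. With Col-0 replicate A left out, 3 of the 5 were below 0 and the median was -0.25. The other measured methionine sulphoxide reductase genes were not called, with MSRB9 at 0.89 (0.126) and MSRB5 at -0.42 (0.137). Of the 14 glutathione transferase genes, GSTU26 was the called one after BTH (beside 2.03% of all probe sets called lower), and 7 were called lower untreated (beside 8.52%).

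On the other side, UGT87A2, a glycosyltransferase gene, read 8.42, 8.97 and 9.64 in Col-0, 9.74, 10.13 and 10.03 in mkk1, and 10.47, 10.17 and 10.61 in mkk2 (1.18 ± 0.24, adjusted p = 0.0127 by limma). BZIP28, a membrane-bound transcription factor gene of the unfolded protein response, was higher by 0.79 (0.0373). It was the called gene among 9 measured for the folding machinery of the endoplasmic reticulum (beside 2.21% of all probe sets called higher), 6 of which were above 0. Without Col-0 replicate A, BZIP28 was at 0.505 and not called (adjusted p = 0.337 by limma), and 4 of the 9 were below 0.

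Across the 33 gene lists, 29 had a measured gene and together held 316 genes, of which 7 were called higher (BIK1, BZIP28, UGT87A2 and the 4 plastid genes) and 6 lower. The 13 calls were 4.11% of the list genes, near the 4.23% of all probe sets. Without Col-0 replicate A, 1 list gene was called higher and 0 lower (limma, adjusted p under 0.05); without that array and the 2 untreated arrays, 7 and 15. In 20 lists no member was called. The autophagy list was 1 of these: all 10 genes, that is ATG3, for a conjugating enzyme, and 9 of the ATG8 family, whose proteins sit on the autophagosome membrane, were below 0, from -0.71 to -0.14, with a median of -0.39. With Col-0 replicate A left out, 8 of the 10 were below 0 and the median was -0.22. Untreated, 5 of the 10 were called lower (beside 8.52% of all). The 2 measured root markers (PYK10 and EXPA7) were not called, and their mean level ran from 3.8 to 5.66 in Col-0 and from 4.41 to 5.65 in the mutants.

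**Figure D2:**
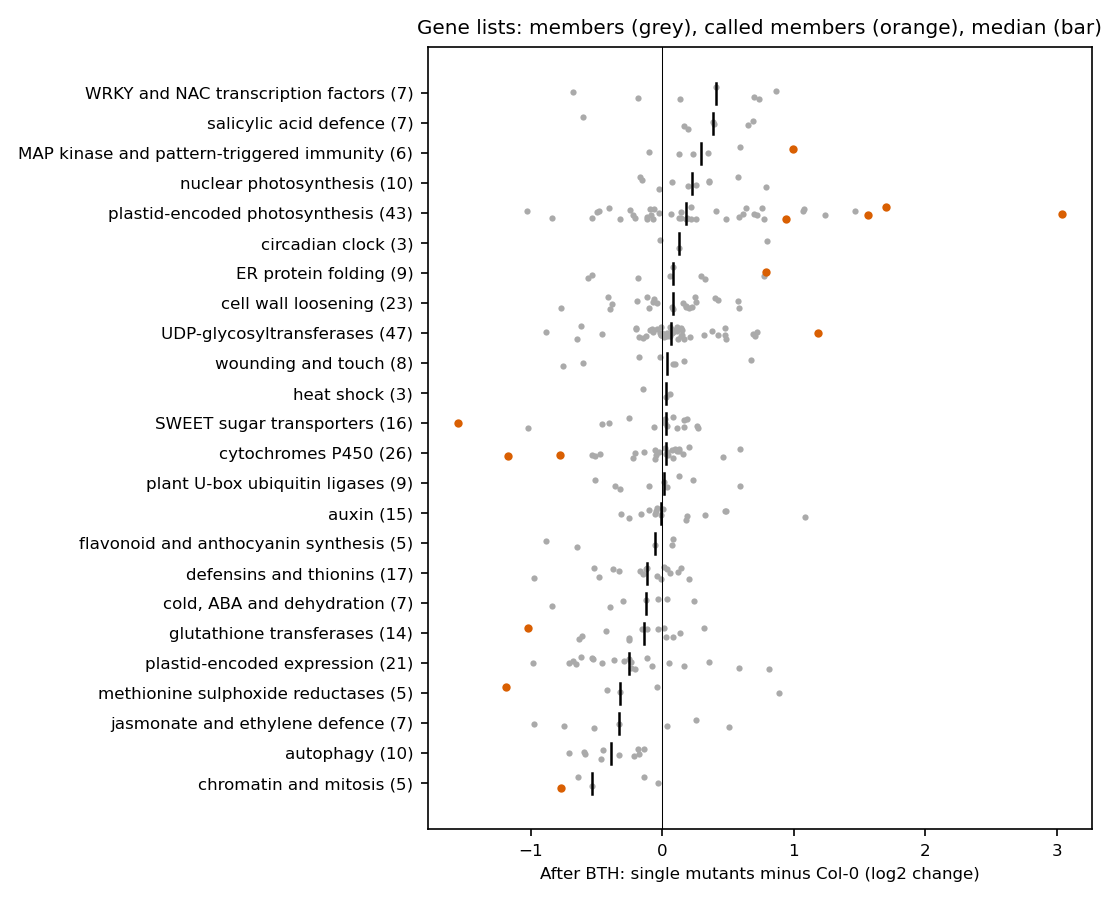
Pooled log2 change after BTH (x axis, single mutants minus Col-0) of each measured gene in the lists with at least 3 measured members (number in brackets), with called genes in orange and a bar at the median. Called genes are isolated points rather than whole lists, and the 10 autophagy genes all lie below 0 in this fit (8 of them without Col-0 replicate A).

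The same contrast was made between the untreated single mutants and untreated Col-0, whose means come from other arrays of the same array sets. The spread of each probe set was fitted to all arrays and is shared, so the calls are not independent. Untreated, 4092 probe sets (18%) were called, 2153 higher (9.47%) and 1939 lower (8.52%). Of the 963 called after BTH, 695 were called untreated too, all in the same direction (361 higher, 334 lower), which is 72.2% of the calls after BTH and 17% of those untreated. Without Col-0 untreated replicate A the share of calls after BTH that were also called untreated was 41.3% (1173 calls after BTH), the lowest of the leave-out settings, and without Col-0 BTH replicate A 88.3% of 60, the highest of them. In all, 935 of the 963 had the same sign, but the share with the same sign over all probe sets was not counted for comparison. Across probe sets, which are not independent replicates, Pearson's r between both changes was 0.692 over all and 0.893 over the 963.

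**Figure D3:**
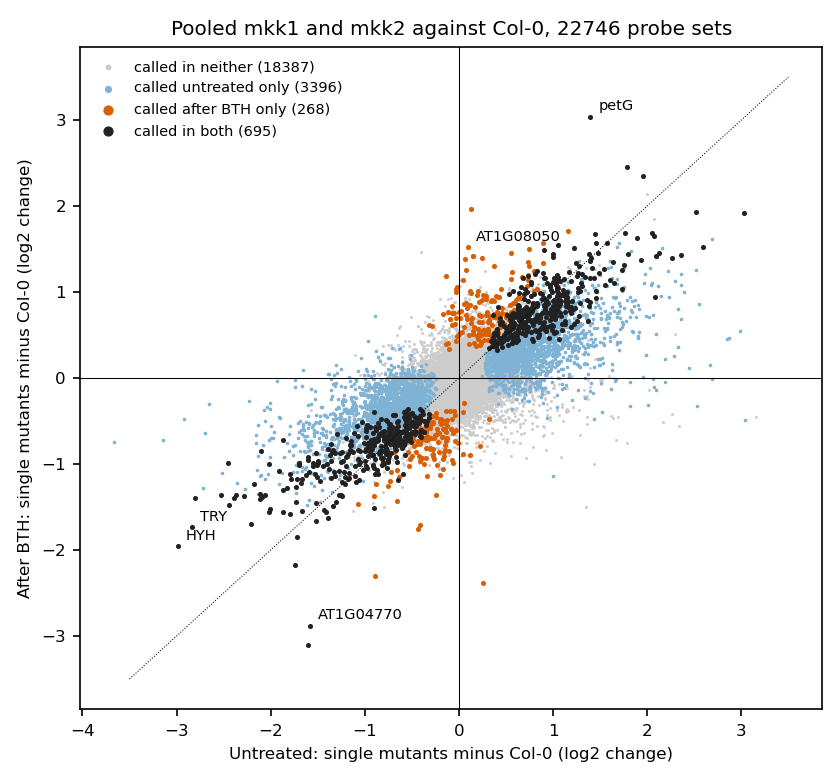
Pooled log2 change of the single mutants from Col-0 untreated (x axis) and after BTH (y axis) for 22746 probe sets, coloured by where they were called, with the line of equal change dotted. The 695 probe sets called in both lie in the lower left and upper right, and the 268 called after BTH without an untreated call lie closer to the vertical axis.

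Among the 963, the median absolute change was 0.76 after BTH and 0.7 untreated, and 421 were larger untreated. These were chosen by their change after BTH, which favours that side. Over all 22746 probe sets the order was the reverse, at 0.16 after BTH and 0.19 untreated. The direct test, which asks whether the BTH response of the mutants differs from that of Col-0, called 2 of 22746 probe sets (0.00879%), both higher and neither among the 963, while 1732 had an unadjusted p under 0.05. Its median standard error was 0.222, beside 0.157 after BTH and 0.157 untreated. A change of a given size is thus harder to call in the direct test, and few calls do not show equal responses. A constant offset between the array sets cancels in that test on the log2 scale. A difference in harvest time between untreated Col-0 and the untreated mutants would not cancel, and was not tested.

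Some genes were called after BTH while their untreated difference had an unadjusted p of at least 0.05, as was so for 164 of the 963. AT1G08050 changed by 1.52 after BTH and 0.09 ± 0.26 untreated, and the difference of 1.43 ± 0.36 was not called (adjusted p = 0.298 by limma, 95% interval 0.67 to 2.19). Genes named by this rule were chosen for a large change after BTH beside a weak untreated one. The difference between both is therefore likely overstated, and the interval is adjusted neither for that choice nor for the number of probe sets. UGT87A2 was at 1.18 after BTH and -0.14 untreated (difference 1.32, 0.317). AT5G35735, AT1G26380, AT4G39830 and AT4G22530 on the higher side, and AT4G33960, AT1G54050, AT3G09700, AT3G53650, AT4G10480 and AT2G44380 on the lower, were the others named by that rule. That no difference in response was called for these 12 genes follows from the count above, since the direct test called none of the 963.

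Probe sets that were high in untreated mkk1/mkk2 plants had, at the median, higher values in the single mutants after BTH, and those that were low had lower ones. In untreated mkk1/mkk2 against untreated Col-0, 3654 probe sets (16.1%) were called higher and 3919 (17.2%) lower, 33.3% together. The log2 changes after BTH do not use these untreated arrays. The calls after BTH do, because the spread of each probe set was fitted to all arrays. Leaving out Col-0 untreated replicate A, B or C moved the calls after BTH from 963 to 1173, 722 or 1088. The shares of calls below are therefore not independent of these arrays. Over the 3654, the pooled single mutants after BTH had a median change of 0.18, with 324 called higher (8.87%, beside 2.21% of all) and 30 lower. Over the 3919 the median was -0.18, with 260 called lower (6.63%, beside 2.03%) and 16 higher. The remaining 15173 had a median of 0.04. These sets held 64.5% of the probe sets called higher and 56.4% of those called lower. Without Col-0 BTH replicate A the medians were 0.16 and -0.19, and the counts fell to 20 and 30. mkk1/mkk2 and Col-0 belong to 1 array set and the single mutants to the other.

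Among the salicylic acid genes, CHI was 6.85 above Col-0 in untreated mkk1/mkk2, OSM34 6.56 and GRX480 4.45. The pooled single mutants were at 0.45, 0.83 and 0.1 untreated, and at 0.17, 0.39 and -0.6 after BTH. With BTH the means of these genes in Col-0 were 9.04, 4.06 and 9.39, beside 12.27, 11.26 and 9.81 in mkk1/mkk2. The plastid genes petG and psaA were below Col-0 in untreated mkk1/mkk2, at -2.45 and -1.91. In the pooled single mutants petG and psaA were at 1.4 and 1.16 untreated, and at 3.04 and 1.71 after BTH. Means after BTH in Col-0 and mkk1/mkk2 were 6.54 and 5.43 for petG and 8.4 and 7.75 for psaA. For psbD they were 9.14 and 8.76, and for psbK 10.99 and 11.04.

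mkk1 and mkk2 could be tested against each other within 1 array set. Against the same 3 Col-0 arrays, mkk1 alone gave 141 calls (0.62%), 0.343% of probe sets being higher and 0.277% lower. mkk2 alone gave 417 (1.83%), with 0.954% higher and 0.879% lower. Between mkk1 and mkk2, 7 probe sets were called (0.0308%), 1 higher in mkk1 (0.0044%) and 6 lower (0.0264%), and 411 had an unadjusted p under 0.05. The treatment notes of these groups differ as described above, and neither that nor the genotype can be told apart in this contrast.

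In 5 of the 7 the level was higher in mkk2, with no call between mkk1 and Col-0: AT1G57630, Hsp70-2, and the probe sets 250286_at, 252921_at and 254385_s_at, which have no single gene in the annotation. AT1G57630 read 6.44, 7.37 and 6.52 in mkk1 and 6.66, 7.13 and 6.58 in Col-0, but 8.63, 7.86 and 8.36 in mkk2. The 3 mkk2 arrays stood apart from the other 6, and mkk1 minus mkk2 was -1.51 ± 0.22 (adjusted p = 0.00699 by limma). Hsp70-2, for a cytosolic heat shock protein, read 6.93, 6.48 and 6.59 in mkk1 and 6.31, 6.41 and 6.44 in Col-0 against 8.14, 7.71 and 7.85 in mkk2 (-1.23 ± 0.19, 0.00856). Both were higher still in mkk1/mkk2, at 8.96 and 9.19 untreated.

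The last 2 probe sets split by genotype. The probe set 253993_at read 7.02, 6.33 and 6.65 in mkk1 against 9.36, 9.22 and 9.49 in mkk2 and 9.01, 9.06 and 9.39 in Col-0 (mkk1 minus mkk2 -2.69 ± 0.24, adjusted p = 1.07e-05 by limma), and it was as low in mkk1/mkk2 after BTH, at 6.33. The probe set 253646_at did the reverse, with 9.74, 9.8 and 9.94 in mkk1 and 9.32, 9.7 and 9.89 in Col-0, but 7.72, 7 and 6.93 in mkk2 (2.61 ± 0.19, 6.04e-07). Its mean in mkk1/mkk2 after BTH was 8.48. Both have no gene in the annotation used here. They entered the pooled comparison as called lower (-1.14 and -1.12) although only 1 of the mutants was low in each.

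**Figure D4:**
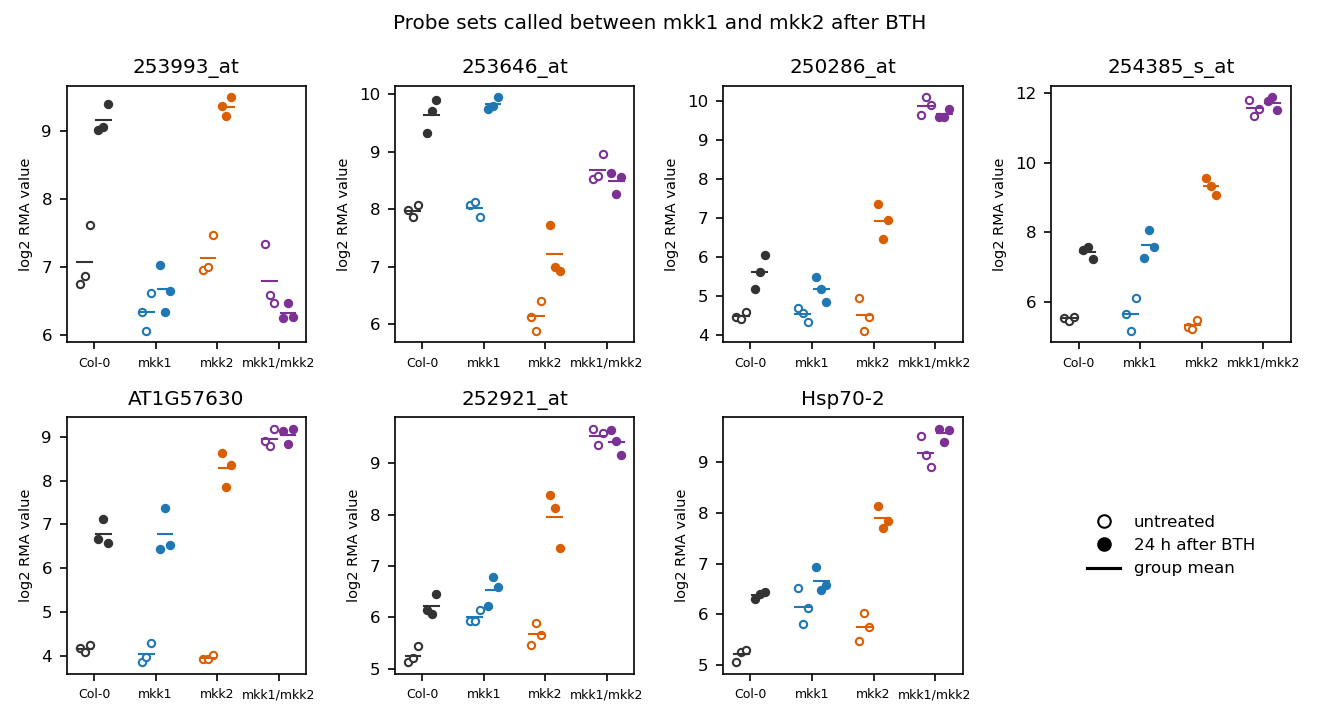
Levels (log2 RMA values, y axis) of the 7 probe sets called between mkk1 and mkk2 after BTH, in all 4 genotypes untreated (open) and 24 h after BTH (filled), 3 arrays per group with a bar at the mean. 253993_at is low in mkk1 and mkk1/mkk2 after BTH, 253646_at is low in mkk2, and the other 5 are higher in mkk2 than in mkk1 after BTH and highest in mkk1/mkk2.

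Leaving out 1 mutant array after BTH gave between 493 and 661 calls, whereas leaving out 1 Col-0 array after BTH gave 60, 251 or 1913.

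**Figure D5:**
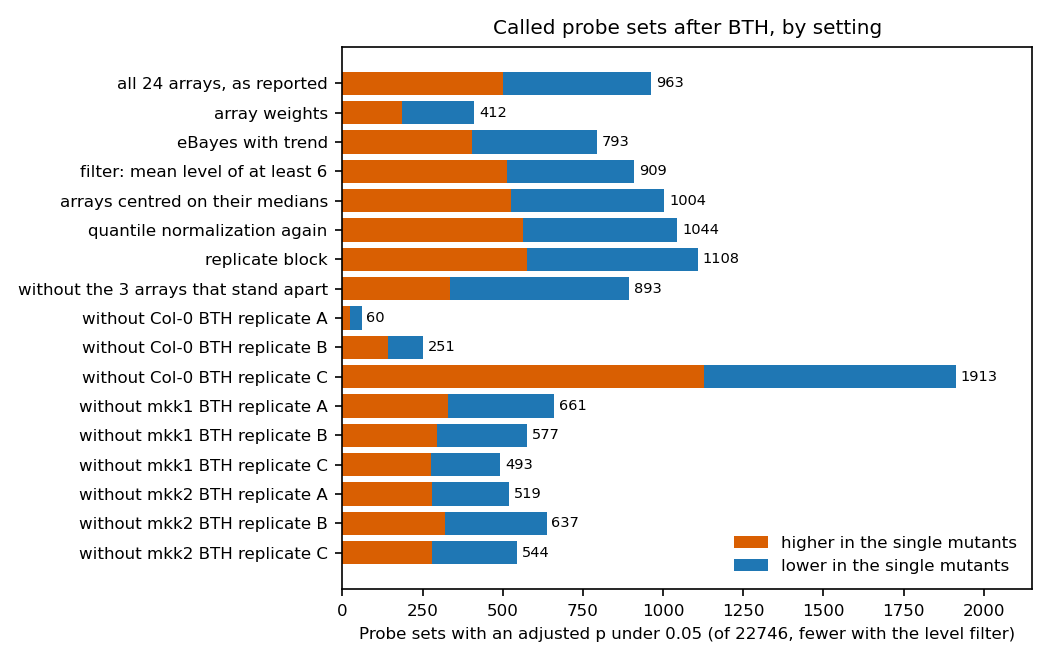
Number of probe sets called between the pooled single mutants and Col-0 after BTH (x axis) under each setting, split into higher (orange) and lower (blue). The reported fit gives 963, and the 3 settings that leave out a Col-0 array after BTH give 60, 251 and 1913.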

How the data were processed

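The authors deposited log2 RMA values (robust multi-array average), per the submitters' processing notes, which give no version. Labelled RNA was hybridised to 24 ATH1 arrays in 8 groups of 3. Values were used as deposited. Array medians were 5.57 to 5.78. Groups came from sample titles.

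Contrasts of 8 group means were fitted to all 24 arrays with limma 3.58.1 (R 4.3.3), with Benjamini-Hochberg adjustment over 22746 probe sets. No filter on level was used. Calculations were tested on simulated data. The number of arrays limits the precision.

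Gene names came from the array annotation, checked against RefSeq, where 1 gene was paired with a probe set: 519 of the 963 called, while 18 had several and 426 none. Named genes were the 12 largest rises and 12 largest falls among called genes whose arrays did not overlap, up to 4 called genes per list, up to 6 per direction in side comparisons, and 17 genes named regardless, 11 of them measured. Members and lists were chosen with earlier results of these data known. Counts and medians of list genes, and counts of the mkk1/mkk2 sets, without doubted arrays were chosen after seeing the data. Promoter sequences were not analysed here. Figures used matplotlib 3.10.9.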

Additional observations from a re-analysis of the deposited data

Results flagged for a closer look

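In 7 probe sets the level differed between mkk1 and mkk2, both after BTH, by limma at an adjusted p under 0.05. The log2 value of mkk1 minus mkk2 was -2.69 for 253993_at, 2.61 for 253646_at, -1.75 for 250286_at, -1.68 for 254385_s_at, -1.51 for AT1G57630, -1.42 for 252921_at and -1.23 for Hsp70-2.

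In 2 probe sets the response to BTH differed between the pooled single mutants and Col-0. The difference was 2.44 ± 0.33 for 258653_at (adjusted p = 0.0107 by limma) and 1.46 ± 0.22 for 252474_at (0.0283). In both the untreated Col-0 plants stood apart, at means of 6.41 and 8.93 against 3.41 to 3.57 and 7.6 to 7.64 in the untreated single mutants, while after BTH the means were 3.66 in Col-0 against 3.15 and 3.22, and 8.33 against 8.23 and 8.74. Those untreated Col-0 arrays are the ones titled Time 0, and the part of harvest time was not tested. No single gene was searched for outlying samples, since every group held 3 arrays.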

How the results depend on the processing

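For the pooled comparison after BTH (963 calls), array weights gave 412, the 9 arrays alone 1834, the single mutants as 1 group of 6 2101, a 2-fold minimum 220, and calls required in each mutant 100. The estimation of array weights stopped before it converged, so all values with array weights are provisional. For mkk1 (141), array weights gave 63, a variance trend 78, the level filter 79, leaving out the 3 arrays that stand apart 302, its own arrays alone 16 and a 2-fold minimum 58. For mkk2 (417), array weights gave 819, leaving out those 3 arrays 703 and a 2-fold minimum 190. For mkk1 minus mkk2 (7), these were 233 with weights, 28 without the 3 arrays and 3 on its own arrays. Untreated (4092), weights gave 10762 and a 2-fold minimum 1123. For the difference in response (2), weights gave 33, the trend 1, the filter 1 and its own arrays 0, by limma. Leaving out 1 array in turn gave 60 to 1913 calls in the pooled comparison after BTH, 8 to 863 for mkk1, 70 to 997 for mkk2, 3 to 8 for mkk1 minus mkk2, 1483 to 4151 untreated and 0 to 54 for the difference in response. Centring each array on its median moved the share called higher untreated from 52.6% to 39.9%, and the split after BTH moved over 10 points without the 3 arrays (52.1% to 37.6% higher). Of the named genes, 3 changed sign, all uncalled: CHI -0.112 with array weights, PUB25 0.02 with weights and from -0.174 to 0.007 with 1 array left out, and SAG101 -0.088 without Col-0 replicate A, alone or with the 2 untreated arrays, and up to 0.392 with another array left out. GRX480 gained a call without Col-0 replicate C. Of 928 counts of called list members, 80 moved by over 1.5 times. The causes were not tested.

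Deviations of same-letter replicates from their group means correlated from -0.21 to 0.58 over 9 pairs after BTH, 2 of them above 0.1. The highest, 0.58, was for replicate C of Col-0 and mkk2, and untreated replicate C of mkk1 and mkk2 gave 0.54. Pairs of unlike letters were not computed for comparison, so whether the letters pair the arrays cannot be told from these values. With the replicate block, 1108 were called.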
